A study of Mus musculus with 9 samples.

Results

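Mouse embryonic stem cells kept in ground-state medium (GS) were compared with cells moved for 24 h into a serum medium that releases nitric oxide (NO), with 3 total RNA libraries per medium, which makes 6 of the 9 libraries of the series. GS was serum-free NDiff N2B27 with the MEK inhibitor PD0325901 at 1 μM, the GSK-3 inhibitor CHIR99021 at 3 μM and leukaemia inhibitory factor (LIF) at 20 ng/mL. NO medium was DMEM with 10% fetal bovine serum and 250 μM of DETA/NO, a compound that sets nitric oxide free as it decays, and it contained neither inhibitor nor LIF. The other 3 libraries came from the same serum medium without the donor, named spontaneous differentiation medium (DM), and their values are given beside those of GS and NO. All cells were of the mES-D3 line, a single established line that grows without feeders, and the labels call the NO culture mesendodermal. GS and NO differ in basal medium, serum, both inhibitors, LIF and donor at once, so the parts of these in a difference between GS and NO cannot be told apart.

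In the ground state, inhibition of MEK blocks the FGF-ERK signal that starts differentiation, inhibition of GSK-3 stabilises β-catenin and relieves the repressor Tcf7l1, and LIF keeps STAT3 active. Naive transcription factors such as Nanog, Esrrb, Klf4 and Tfcp2l1 hold one another at high levels under these inputs. Once the inhibitors are removed, naive cells pass through a formative phase before lineage genes are turned on. Nitric oxide binds haem and non-haem iron, raises cyclic GMP, slows mitochondrial respiration and can activate p53.

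Of 29069 genes in the deposited table, 18156 exceeded a mean of 5 normalised counts over the 9 libraries and were tested with limma on log2(normalised count + 1). A gene was called when its Benjamini-Hochberg adjusted p-value, over all tested genes, was under 0.05 and its log2 difference at least 1. By this rule 1830 genes (10.1%) were higher and 297 (1.64%) were lower in NO than in GS. These shares over genes of all levels are the background given for every list below. A gene was counted as held when the 95% interval of its log2 difference lay between −1 and 1, which was so for 9204 genes (50.7%). The depth estimated from the spacing of low values was 15500000 to 21900000 reads in GS, 14300000 to 26100000 in NO and 18900000 to 27100000 in DM. Higher calls were most frequent among genes that were low in GS: 25.2% of 2393 genes under 10 normalised counts in GS were higher in NO, against 0.999% of 4504 genes at 1000 or above. Lower calls ran from 0.125% of genes under 10 to 2.54% of genes at 50 to 200. The minimum mean counted the NO libraries too, so genes very low in GS were tested mainly where DM or NO was higher. The 25.2% is therefore in part fixed by this filter, and such genes had little room to fall. The same holds for list members that were very low in GS. Lists were not matched for level, so 10.1% is too low a background for lists of low genes and too high for lists of abundant genes.

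NO replicate 2 stood apart from the other NO libraries. It was the most changed library for 1633 of the 1830 higher genes, with a median log2 difference from the GS mean of 2.65 over these genes, against 1.37 in NO replicate 1 and 1.87 in NO replicate 3. For the lower genes the medians were nearer to each other, at −1.10, −1.71 and −1.41 in NO replicates 1, 2 and 3. Without NO replicate 2, 1170 genes were higher and 228 lower, and counts without this library are given beside most lists below. Quantile normalisation gave 1304 higher and 629 lower genes, which lowered the share of higher genes among the called from 86.0% to 67.5%. The median log2 difference over all tested genes was −0.02, and it was −0.11 after quantile normalisation and 0.09 after scaling to equal totals.

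Most genes of the naive network were held in NO. Of 14 naive transcription factors, all tested, 10 were held and 1 was lower, with a median log2 difference of −0.32. Over all tested genes 50.7% were held, a share that was not matched for level. Holding was not particular to these genes, as all 28 mitosis genes and 34 of 35 DNA replication genes were also held. *Esrrb*, an orphan nuclear receptor and direct target of the GSK-3 input, had normalised counts of 16800, 16957 and 14055 in GS replicates 1, 2 and 3, and of 13441, 9905 and 15841 in NO, and values below are in this order. *Tbx3*, a T-box factor sustained by LIF signalling, had 7898, 7976 and 6685 in GS and 8179, 7642 and 8198 in NO. In both genes the values of the media overlapped, and their log2 differences were −0.31 (95% interval −0.70 to 0.08) and 0.09 (−0.20 to 0.38). *Nanog*, *Klf4*, *Klf5*, *Zfp42*, *Nr5a2*, *Nr0b1*, *Sall4* and *Mybl2* were also held, with log2 differences from −0.62 for *Nr5a2* to 0.51 for *Nr0b1*. That of *Nr5a2*, a nuclear receptor that acts upstream of *Pou5f1*, passed the adjusted p-value threshold (limma, 0.00842) but was less than 2-fold.

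*Tfcp2l1*, a Grainyhead-related factor downstream of STAT3, was the naive factor that fell. It had 30965, 31982 and 30213 in GS (normalised counts) and 16478, 10479 and 12991 in NO, and every NO value was well below every GS value. Its log2 difference of −1.25 ± 0.18 (SE) had an adjusted p-value of 0.0013 (limma). In DM it had 11814, 12742 and 9340. After quantile normalisation the log2 difference was −0.996, just short of the 2-fold limit. Neither called nor held were *Klf2*, *Prdm14* and *Gbx2*. *Gbx2*, a homeobox gene downstream of LIF and STAT3, had 180, 268 and 194 in GS, 138, 78 and 123 in NO and 266, 302 and 376 in DM. Its groups in GS and NO did not overlap, yet the log2 difference of −0.93 fell short of a 2-fold change (adjusted p-value 0.0224). *Gbx2* was called lower after quantile normalisation (−1.26, adjusted p-value 0.0154) and without GS replicate 1 (−1.05), NO replicate 1 (−1.10) or NO replicate 3 (−1.01). *Klf2*, a Krüppel-like factor, had a log2 difference of −0.54 (−1.06 to −0.03) and *Prdm14*, a repressor of FGF signalling and DNA methylation genes, of −0.52 (−1.04 to −0.00).

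**Figure D1:**
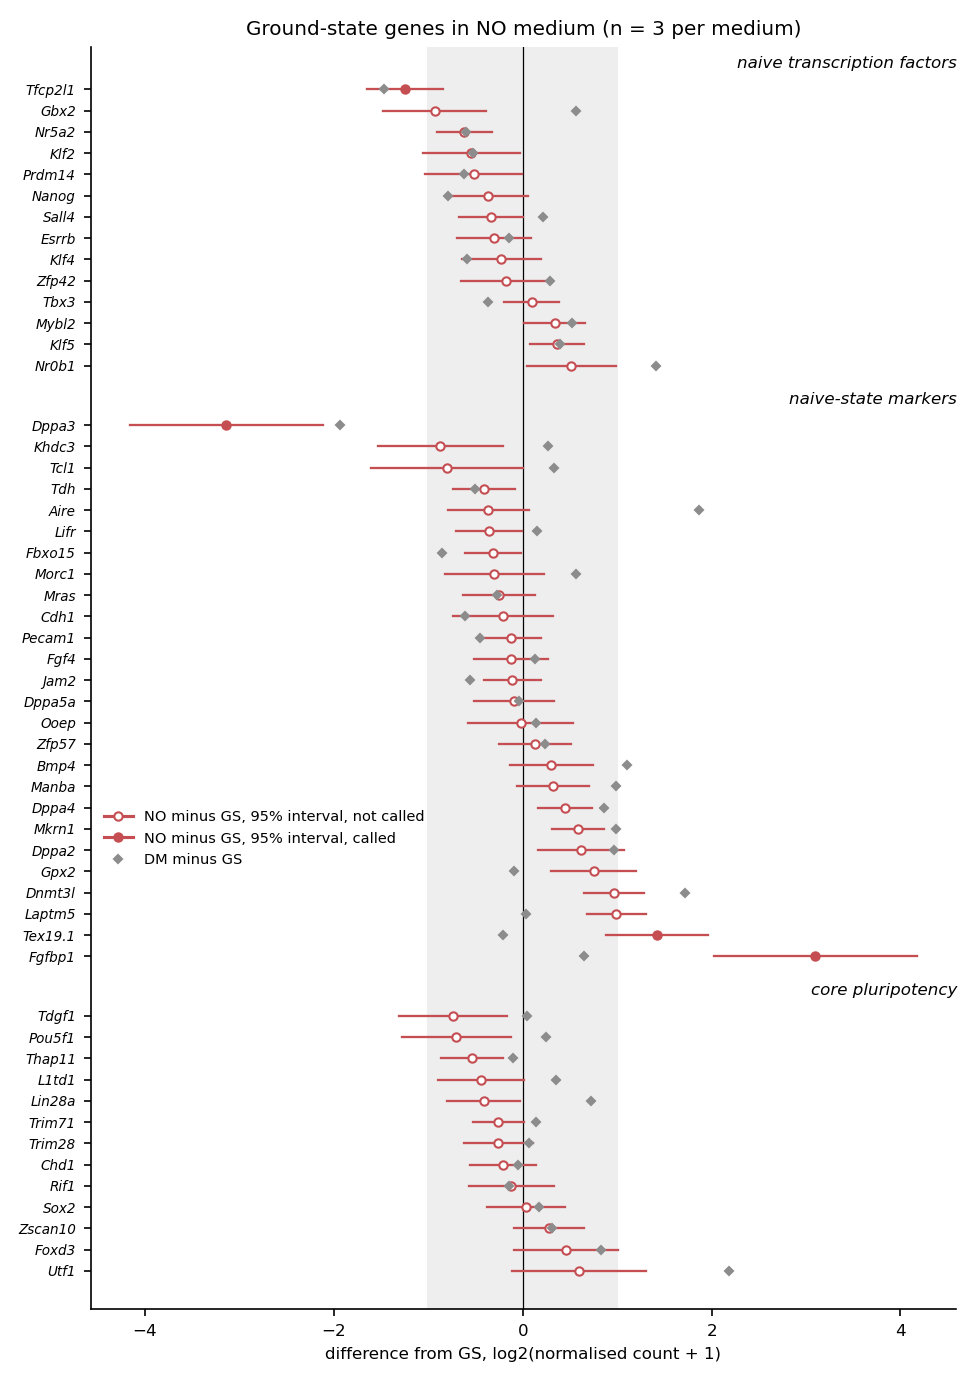
Log2 difference from GS of the 53 tested genes of the naive transcription factor, naive-state marker and core pluripotency lists, in log2(normalised count + 1). Red circles with lines are NO minus GS with the 95% interval (filled when called), grey diamonds are DM minus GS, and the shaded band from −1 to 1 is the range used for held genes, in which 36 intervals lie.

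Of the 26 naive-state markers, which are not all regulators, 17 were held, 2 were higher and 1 was lower. *Dppa3* (Stella), a maternal factor that protects methylated DNA from oxidation, fell from 236, 160 and 250 in GS (normalised counts) to 48, 10 and 25 in NO. GS and NO did not overlap, and the log2 difference of −3.14 ± 0.47 (SE) had an adjusted p-value of 0.00136. It had 81, 42 and 48 in DM. The genes that rose were *Tex19.1*, which restrains transposable elements in germ cells, and *Fgfbp1*, a secreted carrier of FGF. *Tex19.1* had 468, 721 and 602 in GS and 1080, 2121 and 1709 in NO, and *Fgfbp1* had 44, 79 and 61 in GS and 220, 1317 and 481 in NO, with NO replicate 2 highest in both. Their log2 differences were 1.42 and 3.10. *Fgf4*, *Tdh*, *Dppa5a*, *Zfp57*, *Jam2*, *Pecam1*, *Cdh1* and *Fbxo15* were among the held markers. *Aire*, the transcriptional regulator known from the thymus, was held at 285, 443 and 322 in NO against 491, 471 and 376 in GS, while it stood at 1345, 1660 and 1883 in DM, and the 3 NO values lay below all DM values. Exons of *Aire* and *Dnmt3l* overlap, and per the study's methods reads that overlapped several genes were excluded, so reads of either gene could be missing.

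*Dnmt3l*, the catalytically inactive partner of the de novo DNA methyltransferases, was just short of a 2-fold change. It had 2943, 3815 and 3298 in GS (normalised counts), 5805, 6954 and 6817 in NO and 12314, 10411 and 10297 in DM, and the 3 media did not overlap. The log2 difference between NO and GS was 0.96 (0.65 to 1.28). *Laptm5*, a lysosomal membrane protein, was as close, with 1629, 1756 and 1355 in GS, 2680, 3448 and 3304 in NO and 1570, 1637 and 1632 in DM and a log2 difference of 0.99. With *Gpx2*, *Dppa2*, *Tcl1* and *Khdc3* they made up the 6 markers that were neither called nor held. After quantile normalisation *Dnmt3l* and *Laptm5* were called higher, at log2 differences of 1.14 and 1.11, which made 4 higher markers in place of 2. Both were also called after scaling to equal totals and without GS replicate 2 or NO replicate 1, and *Laptm5* without GS replicate 1.

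Among 15 core pluripotency genes 11 were held and none was higher or lower. *Sox2*, *Sall4*, *Lin28a*, *Trim28*, *Rif1*, *Trim71*, *L1td1*, *Zscan10*, *Chd1*, *Thap11* and *Dppa4* were held. *Pou5f1*, *Tdgf1*, *Utf1* and *Foxd3* were neither called nor held. *Pou5f1*, the core factor Oct4, had 12537, 11278 and 11710 in GS and 8983, 4276 and 9978 in NO, and *Tdgf1*, a Nodal co-receptor, had 8915, 8730 and 9380 in GS and 8362, 3293 and 5700 in NO. All their NO values lay below all GS values, and NO replicate 2 was the lowest. The 3 lists share members and hold 53 genes together, of which 36 were held in NO, 2 were higher and 2 lower, with a median log2 difference of −0.21. The share held over all tested genes was 50.7% and was not matched for level. Without NO replicate 2, 40 were held, 2 higher and 2 lower. Without NO replicate 1, 6 of the 53 were lower.

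Some genes that were low in DM stood at ground-state levels in NO. The rule used here took only genes with a mean of at least 100 and left out predicted genes and pseudogenes. By this rule, 19 genes were lower in DM than in GS, higher in NO than in DM and held between NO and GS. The rule fixes these directions, and the comparisons share libraries, so the values are a description and no test. The 10 of these genes with the largest difference between NO and DM were *Parm1*, *Aqp3*, *Hspb8*, *Ttc28*, *Ctnnd2*, *Dio3*, *Zbtb10*, *Bach2*, *Nod2* and *Grid1*. *Aqp3* (chromosome 4, 41092722 to 41098183, minus strand, GRCm38), which conducts water and glycerol, had 1853, 1767 and 1347 in GS (normalised counts), 342, 348 and 437 in DM and 995, 1942 and 1743 in NO. The GS and NO values overlapped, and the DM values were far below both. *Hspb8*, a small heat shock protein of chaperone-assisted autophagy, had 1827, 1584 and 1723 in GS, 517, 506 and 459 in DM and 1323, 2427 and 1606 in NO.

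*Parm1*, a mucin-like membrane protein, had 344, 324 and 341 in GS, 82, 62 and 69 in DM and 264, 627 and 375 in NO. *Zbtb10*, a zinc finger repressor, had 1138, 1060 and 1212 in GS, 270, 306 and 226 in DM and 641, 1052 and 763 in NO. *Zbtb10* was the gene of the 10 whose NO values all lay below those of GS, and the other 9 overlapped. In all 10 genes NO replicate 1 was the lowest and NO replicate 2 the highest of the NO libraries, so the NO means of these genes rest on libraries that differ in one and the same order. *Dio3*, which inactivates thyroid hormone, ran from 96 to 211 in NO against 151 to 160 in GS and 34 to 72 in DM. *Bach2*, a transcriptional repressor best known in lymphocytes, ran from 107 to 211 in NO against 155 to 194 in GS.

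**Figure D2:**
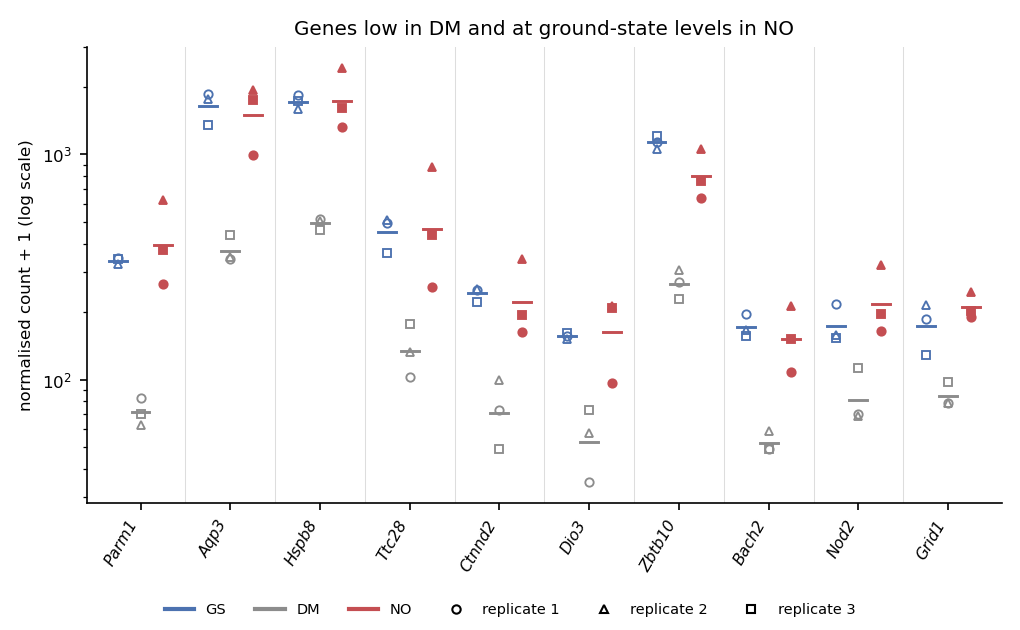
Normalised count + 1 (log scale) of the 10 genes in every library, with GS in blue, DM in grey and NO in red, the replicate number by symbol and the geometric mean as a bar. The NO values straddle or approach the GS values, and all lie above the 3 DM values.

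Several targets of β-catenin, which CHIR99021 stabilises in GS, fell in NO. Of 20 tested targets, 7 were lower in NO than in GS, 1 was higher and 6 were held, with a median log2 difference of −0.51. *Axin2*, the negative feedback gene of the pathway (chromosome 11, 108920349 to 108950783, plus strand), had 1356, 1592 and 1307 in GS (normalised counts), 261, 767 and 416 in NO and 300, 384 and 412 in DM. All NO values lay below all GS values, and NO replicate 2 was the highest NO library. Its log2 difference of −1.69 ± 0.30 (SE) had an adjusted p-value of 0.00341 (limma). *Nkx1-2*, *Cdx1*, *Cdx2*, *Sp5*, *T* and *Lef1* were the other lower genes.

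*T* (Brachyury), the T-box factor of the primitive streak, had 137, 183 and 131 in GS, 8, 28 and 22 in NO and 10, 1 and 0 in DM. *Sp5*, a zinc finger factor that feeds back on Wnt targets, had 187, 327 and 237 in GS, 9, 75 and 14 in NO and 1, 5 and 5 in DM. The groups of GS and NO were separate in both genes, and the log2 differences of −3.04 and −3.44 had adjusted p-values of 0.0151 and 0.00543. Without GS replicate 2 the adjusted p-value of *T* was 0.0607. The TCF motif, searched as ATCAAAG or TTCAAAG on both strands in the 250 bases before the start in RefSeq promoters (GRCm38.p6), was found for 4 of 13 matched targets and for 6.59% of 11521 matched tested genes. Of the 7 lower targets 6 were matched and 2 held it, *Sp5* and *T*. The 120 bases before the start of *Sp5* (chr2:70474803-70474922, plus strand) are shown because it is the lower target with the match nearest to its start, with the match in capitals.
Sp5: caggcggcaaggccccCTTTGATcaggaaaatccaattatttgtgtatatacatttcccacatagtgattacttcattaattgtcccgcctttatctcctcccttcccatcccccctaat

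*Rnf43*, *Tcf7*, *Znrf3*, *Apcdd1*, *Bambi* and *Sall4* were the held genes of this list. *Rnf43*, a ubiquitin ligase that removes Frizzled receptors, had 80, 89 and 65 in GS, 60, 142 and 67 in NO and 11, 14 and 26 in DM. GS and NO overlapped and DM was below both. The gene that rose was *Wnt8a*, a Wnt ligand, from 14, 19 and 15 in GS to 36, 263 and 64 in NO. *Lef1*, a partner of β-catenin on DNA, had 29, 24 and 16 in GS, 7, 10 and 3 in NO and 42, 46 and 52 in DM, so that NO was the lowest of the 3 media. *Lef1* was not called without GS replicate 1 (adjusted p-value 0.0607) or GS replicate 2 (0.0542), nor *Wnt8a* without GS replicate 1 (0.053) or GS replicate 3 (0.0569). Of these targets 8 were lower and 1 higher without NO replicate 2, and quantile normalisation gave 7 lower and 1 higher.

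LIF was withdrawn in NO, and the genes of its pathway were described by a list of 16, of which 6 were held, 3 were lower and 1, *Il4ra*, was higher, its call being lost when 6 of the 9 libraries were each left out. The lower genes were *Il6st*, *Bcl3* and *Tfcp2l1*. *Il6st*, the shared receptor chain gp130, had 2088, 2124 and 2150 in GS and 1309, 790 and 1121 in NO with no overlap, a log2 difference of −1.01 (adjusted p-value 0.00223, limma) that was −0.81 without NO replicate 2. *Socs3*, the feedback inhibitor induced by STAT3, had 3012, 2899 and 2621 in GS, 1540, 1535 and 1532 in NO and 1225, 1404 and 1289 in DM. The NO libraries were nearly equal and all below GS, but at −0.89 the difference was less than 2-fold (adjusted p-value 0.000944). *Lifr* and *Stat3* were held, with log2 differences of −0.36 and −0.28. *Lif* itself rose, from 201, 283 and 163 in GS to 353, 884 and 492 in NO, while DM had 165, 199 and 193. The log2 difference of *Lif* was 1.35, and it was 0.98 without NO replicate 2, while its adjusted p-value was 0.051 without GS replicate 3. The list had 2 lower genes and none higher without NO replicate 2, and equal numbers after quantile normalisation.

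The release from the MEK inhibitor was examined with 19 ERK targets and feedback genes. In this list 7 were higher in NO than in GS, 1 was lower and 9 were held, with a median log2 difference of 0.56 in NO and 0.96 in DM. *Dusp6*, the phosphatase of ERK, had 300, 507 and 389 in GS, 1356, 1282 and 1615 in NO and 2090, 1755 and 2194 in DM. The media did not overlap, and NO lay between GS and DM. *Spry4*, an inhibitor of receptor tyrosine kinase signalling, had 685, 1556 and 836 in GS, 2684, 1614 and 2646 in NO and 4993, 5343 and 5573 in DM. Its log2 difference was 1.23 against GS and −1.23 against DM, with adjusted p-values of 0.0101 and 0.0156. Without GS replicate 1 the former was 0.98. *Dusp4*, *Dusp5*, *Phlda1*, *Lif* and *Shisa2* were the other higher genes, and *Etv5*, *Spry2*, *Spred1*, *Spred2* and *Epha2* were among the held ones. *Dusp5* lost its call without GS replicate 1 or 2 (limma, adjusted p-values 0.0712 and 0.0734). Its log2 difference was 0.78 without NO replicate 2 and 0.68 after quantile normalisation. In the fit without NO replicate 2, 5 of the list were higher and none lower.

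Of 17 tested immediate early genes, 6 rose in NO and 1 fell. *Fos* and *Jun*, the AP-1 subunits, stood at 41, 36 and 26 and at 121, 108 and 116 in GS, and at 112, 495 and 211 and at 179, 1219 and 399 in NO. *Atf3*, a stress-induced relative of these, had 35, 33 and 45 in GS, 112, 912 and 213 in NO and 25, 26 and 24 in DM. All NO values were above all GS values, and NO replicate 2 was several times the other NO libraries. *Fosl1*, *Btg2* and *Cyr61* were the remaining higher genes, and *Ier3* was the lower one, while the fit without NO replicate 2 gave 5 higher genes and none lower. *Jun* was not called without any one GS library (adjusted p-values 0.0532 to 0.0647), and *Cyr61* and *Ier3* lost their call when 7 and 6 of the 9 libraries, respectively, were each left out. The call of *Fosl1* was lost without GS replicate 3 (limma, adjusted p-value 0.061). In 15 of the 17 genes NO replicate 2 was the highest NO library. The median log2 difference of the list from the GS mean was 0.08 in NO replicate 1, 2.24 in NO replicate 2 and 1.06 in NO replicate 3.

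Many genes of glycolysis and of the response to hypoxia were lower in NO. Both groups are known to be driven by the HIF transcription factors under low oxygen. Of 26 genes of glycolysis and lactate export, 13 were lower in NO than in GS, 1 was higher and 4 were held, with a median log2 difference of −0.95. In DM the median was 0.25 and none was called against GS. All 3 NO values lay below all GS values in 19 of the 26. *Slc16a3*, the lactate exporter MCT4 (chromosome 11, 120948480 to 120960868, plus strand), had 1898, 1775 and 1577 in GS, 251, 319 and 245 in NO and 2348, 2285 and 3367 in DM. *Tpi1*, triose phosphate isomerase, had 13086, 11495 and 11406 in GS, 3848, 2693 and 3741 in NO and 13267, 10865 and 17347 in DM. The NO libraries were close together in both genes and far from either other medium, with log2 differences from GS of −2.69 and −1.82 and adjusted p-values of 1.95e-05 and 0.000425 by limma.

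*Hk2*, hexokinase, and *Pfkl*, a phosphofructokinase subunit, stood at 7305, 5777 and 6372 and at 3086, 3158 and 3126 in NO, against 16261, 15314 and 13517 and 7963, 7849 and 7177 in GS. *Ldha*, lactate dehydrogenase A, had 41923, 32655 and 26785 in GS, 15044, 10769 and 10321 in NO and 36275, 31699 and 76705 in DM. *Aldoa*, *Aldoc*, *Pgk1*, *Pkm*, *Eno1*, *Gpi1*, *Pfkp* and *Pfkfb3* were the other lower genes, so that steps from hexokinase to lactate export were among the lower genes. The gene that rose was *Pfkfb4*, a regulator of fructose bisphosphate, from 124, 169 and 139 in GS to 220, 572 and 284 in NO, a log2 difference of 1.20 that was 0.80 without NO replicate 2. *Gapdh* had 64189, 58977 and 48501 in GS and 60170, 22918 and 45744 in NO and was not called (log2 difference −0.51, adjusted p-value 0.348), and *Slc2a3*, a glucose transporter, was held. Without NO replicate 2, 11 genes of the list were lower and none higher, and after quantile normalisation 11 were lower and 1 higher.

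**Figure D3:**
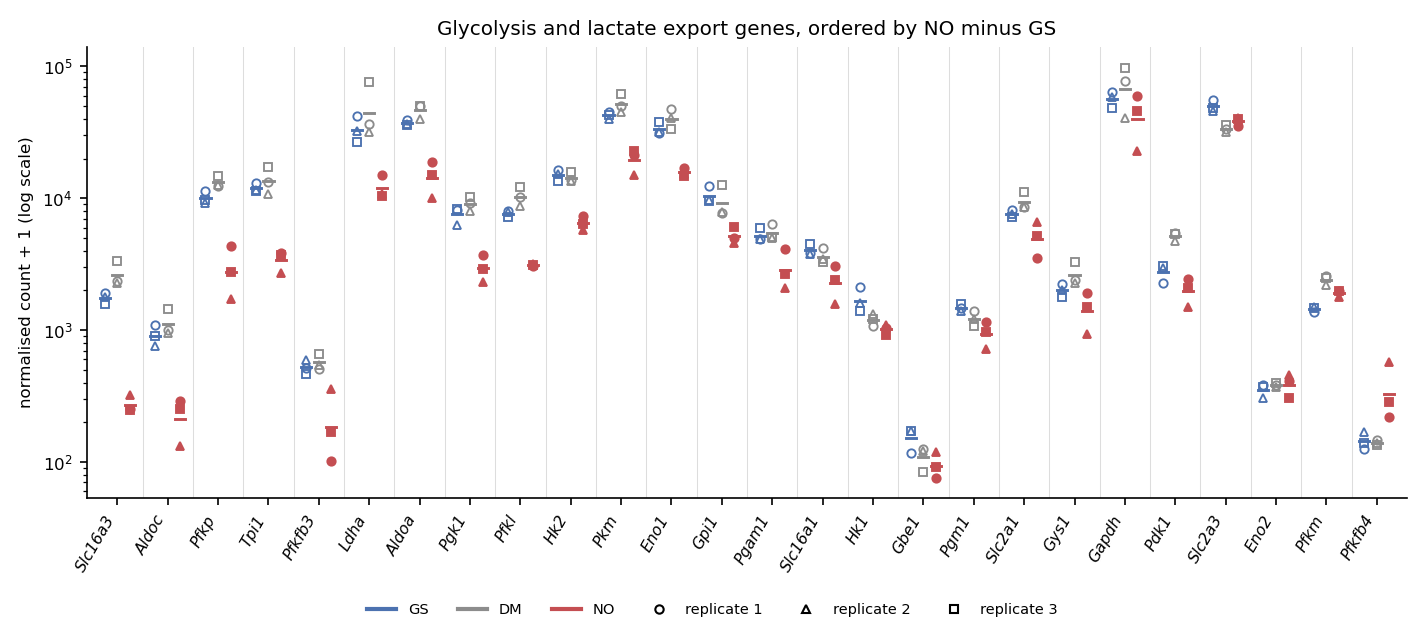
Normalised count + 1 (log scale) of all 26 tested genes of glycolysis and lactate export in every library, ordered by the difference between NO and GS, with GS in blue, DM in grey, NO in red, the replicate number by symbol and the geometric mean as a bar. From *Slc16a3* to *Gpi1* the 3 NO values lie below the GS values, and *Pfkfb4* at the right is the gene that was higher.

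Among 29 other hypoxia-response genes, 9 were lower and 2 were higher in NO than in GS, and 7 were held. *Bnip3*, a mitophagy receptor (chromosome 7, 138890836 to 138909519, minus strand), had 1348, 886 and 1353 in GS and 88, 104 and 85 in NO. *Egln1*, the oxygen-sensing hydroxylase PHD2, had 1803, 1440 and 1334 in GS, 360, 492 and 449 in NO and 1082, 1035 and 1224 in DM. *Ndrg1*, a stress-response gene, had 1000, 721 and 830 in GS, 182, 240 and 262 in NO and 818, 834 and 1052 in DM. In *Bnip3*, *Egln1* and *Ndrg1* all NO values lay below all GS values, and their log2 differences from GS were −3.66, −1.81 and −1.90. *Ankrd37* had 24, 24 and 24 in NO against 72, 70 and 98 in GS. *Egln3*, *P4ha1*, *Higd1a*, *Ero1l* and *Stc2* were also lower. The genes that rose were *Epas1*, which encodes HIF-2α, from 364, 395 and 323 in GS to 870, 988 and 853 in NO, and *Car12*, a carbonic anhydrase. *Epas1* stood at 1251, 1508 and 1452 in DM. With NO replicate 2 left out, 11 genes were lower and 2 higher.

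The core of the hypoxia response element, searched as ACGTG on both strands in the 250 bases before the start, was found in 25 of 47 matched genes of both lists, and in 12 of 20 matched genes that were lower in NO. It was found in 24.1% of 11521 matched tested genes. Where the motif reads CACGTG it is also an E-box and matches on both strands. A match describes the letters and is not a binding site. The 120 bases before the start of 5 lower genes are printed as examples of the lower genes described here that carry the motif, with the matches in capitals: *Bnip3* (chr7:138909507-138909626, minus strand), *Slc16a3* (chr11:120948947-120949066, plus strand), *Ldha* (chr7:46845684-46845803, plus strand), *Egln1* (chr8:124949255-124949374, minus strand) and *Ankrd37* (chr8:45999851-45999970, minus strand), from RefSeq promoters of GRCm38.p6.
Bnip3: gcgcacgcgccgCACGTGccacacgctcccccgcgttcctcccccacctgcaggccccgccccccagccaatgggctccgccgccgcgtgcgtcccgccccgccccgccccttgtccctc
Slc16a3: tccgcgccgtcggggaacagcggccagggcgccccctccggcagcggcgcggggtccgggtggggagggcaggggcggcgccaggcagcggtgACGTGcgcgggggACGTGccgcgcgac
Ldha: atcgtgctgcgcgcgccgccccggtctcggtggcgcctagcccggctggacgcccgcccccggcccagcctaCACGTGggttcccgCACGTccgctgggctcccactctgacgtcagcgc
Egln1: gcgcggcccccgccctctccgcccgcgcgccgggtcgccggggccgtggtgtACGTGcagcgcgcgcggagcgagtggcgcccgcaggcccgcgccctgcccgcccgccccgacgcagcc
Ankrd37: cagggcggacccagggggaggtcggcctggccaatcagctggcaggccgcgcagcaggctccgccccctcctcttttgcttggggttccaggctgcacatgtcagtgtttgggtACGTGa

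Genes of sterol synthesis, targets of the SREBP factors, were followed as a further metabolic group. Of 22 genes 8 were lower and none was higher in NO than in GS, 5 were held, and the median log2 difference was −0.93 against −0.02 in DM. In 21 of the 22 all NO values lay below all GS values. *Sqle*, squalene epoxidase, had 4667, 4409 and 5099 in GS, 2670, 1293 and 1923 in NO and 5172, 4178 and 4708 in DM. *Insig1*, which retains the SREBP activator in the endoplasmic reticulum, had 2151, 1698 and 2100 in GS, 1032, 705 and 694 in NO and 1574, 1433 and 1959 in DM. In both genes every NO value lay below every GS and DM value, and their log2 differences of −1.33 and −1.31 had adjusted p-values of 0.00212 and 0.00111 by limma. *Fdps*, *Cyp51*, *Sc4mol*, *Sc5d*, *Dhcr7* and *Idi1* were the other lower genes. The lower genes numbered 6 without NO replicate 2 and 10 after quantile normalisation. In the related list of 15 fatty acid synthesis genes, *Scd1* and *Scd2*, the stearoyl-CoA desaturases, fell, the latter from 25636, 22606 and 22387 in GS to 9693, 5345 and 6710 in NO.

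Nitric oxide is a known activator of p53, whose targets were therefore listed. Of 30 genes 11 were higher, 1 was lower and 9 were held, with a median log2 difference of 0.84 in NO and 0.02 in DM. *Perp*, a membrane protein of desmosomes and apoptosis, had 274, 333 and 269 in GS, 901, 4411 and 2165 in NO and 197, 210 and 241 in DM. *Mdm2*, the ubiquitin ligase of p53, had 2408, 2724 and 2889 in GS, 4420, 15166 and 6474 in NO and 2409, 2199 and 1803 in DM. Every NO value was above the GS and DM values, in the order of replicates 1, 3 and 2. The log2 differences from GS were 2.81 ± 0.41 and 1.51 ± 0.34 (SE), with adjusted p-values of 0.0013 and 0.0101 by limma. *Fas*, *Bbc3*, *Pmaip1*, *Btg2*, *Plk2*, *Ercc5*, *Ddit4l*, *Ptp4a3* and *Dcxr* were the other higher genes, among them the pro-apoptotic *Bbc3* (Puma) and *Pmaip1* (Noxa).

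*Cdkn1a*, the cell cycle inhibitor p21, was already high in GS, at 3839, 3758 and 3288 against 2535, 4859 and 3663 in NO and 1462, 1487 and 1976 in DM, and was held between GS and NO. *Trp53cor1*, a long non-coding RNA next to *Cdkn1a*, was the member that fell, from 241, 246 and 232 in GS to 107, 146 and 105 in NO. Of the list 9 were higher and 1 lower without NO replicate 2, and quantile normalisation gave 13 and 1.

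The rule for naming single genes gave as higher in NO, with a mean of at least 100, *Ces2e*, *Robo3*, *Ces2g*, *Ptprt*, *Nlrc5*, *Sbsn*, *Apol8*, *Plch2*, *Itgb2*, *Unc45b*, *Col6a4* and *Rgs14*. The rule took called genes whose NO values all lay above all GS values, so separation from GS and large differences are fixed by it. The mean of at least 100 also counted the NO libraries. The values are therefore a description and no test, and the corresponding lower genes were chosen in the same way. All 12 had NO replicate 1 lowest and NO replicate 2 highest, and in each all NO values also lay above all DM values. *Plch2*, a phospholipase C, had 21, 36 and 24 in GS, 287, 1802 and 680 in NO and 40, 43 and 47 in DM. *Unc45b*, a chaperone of muscle myosin, had 19, 17 and 16 in GS, 163, 1096 and 403 in NO and 41, 43 and 26 in DM. *Nlrc5*, a regulator of MHC class I genes, had 2, 14 and 9 in GS and 117, 833 and 279 in NO. In these genes the lowest NO value was several times the highest GS value, and the log2 differences were 4.69, 4.51 and 5.30, with standard errors of 0.50, 0.53 and 0.69.

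*Ces2e*, a carboxylesterase (chromosome 8, 104926260 to 104934672, plus strand), reached 150, 1333 and 428 in NO from 0, 3 and 5 in GS and 2, 4 and 4 in DM (adjusted p-value 0.000438, limma). *Ces2g*, a related gene, had 11, 0 and 5 in GS and 90, 911 and 217 in NO. Reads that aligned to several places, as in such paralogues, were excluded by the authors. No fold change is given for these genes or for *Robo3*, an axon guidance receptor (0, 4 and 1 in GS, 74, 782 and 225 in NO), because GS libraries at 0 make it depend on the pseudocount. The corresponding lower genes, beside those already described, were *Grin1*, *A2m*, *Spic*, *Crxos1*, *Ndufa4l2* and *Wnt5b*. *Spic*, an ETS factor known from macrophages and from naive cells, had 627, 462 and 695 in GS, 163, 49 and 150 in NO and 116, 100 and 126 in DM. *Ndufa4l2*, a mitochondrial protein induced by hypoxia, had 370, 254 and 251 in GS and 20, 169 and 63 in NO, and its NO libraries were far apart. Its call was lost without any one GS library or NO replicate 3 (adjusted p-values 0.0568 to 0.0783).

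Lineage genes moved in both directions. In the mesendoderm list 10 of 24 tested genes were higher, 3 were lower and 3 were held, with a median log2 difference of 1.17 in NO and −0.21 in DM. *Gata6*, a factor of endoderm, had 15, 5 and 11 in GS, 20, 234 and 90 in NO and 7, 6 and 11 in DM, and *Hand1*, of extraembryonic and cardiac mesoderm, had 3, 4 and 4 in GS and 11, 111 and 33 in NO. *Gata6* had an adjusted p-value of 0.0175, and of 0.0519 to 0.0731 without GS replicate 2 or 3 or NO replicate 2 or 3. The members that fell were *T*, *Eomes* and *Gsc*, which mark the primitive streak and the organiser. *Eomes* had 229, 308 and 298 in GS, 90, 91 and 118 in NO and 111, 170 and 122 in DM, and *Gsc* had 41, 43 and 26 in GS and 7, 5 and 3 in NO, with no overlap of GS and NO. Their log2 differences were −1.47 and −2.67 (adjusted p-values 0.00144 and 0.00257, limma). Without NO replicate 2, 6 members were higher and 3 lower, and quantile normalisation gave 7 and 4.

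Of 16 tested Wnt ligands 11 were higher and 1 was lower, with a median log2 difference of 2.73. Ligands very low in GS were tested mainly where DM or NO was higher, so these counts are in part fixed by the minimum mean. *Wnt6* had 29, 32 and 21 in GS, 124, 524 and 361 in NO and 79, 97 and 130 in DM, and *Wnt10a* had 3, 4 and 1 in GS and 47, 107 and 43 in NO. *Wnt9a* had 24, 9 and 5 in GS and 66, 599 and 148 in NO and its NO libraries were far apart. *Wnt5b* was the ligand that fell, from 249, 294 and 274 in GS to 61, 43 and 97 in NO, and it had 93, 59 and 98 in DM. When NO replicate 2 was left out, 8 ligands were higher and 1 lower, and after quantile normalisation 9 and 1.

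Of 18 tested primitive endoderm genes 5 were higher and 1 was lower. *Col4a1*, a chain of basement membrane collagen, had 313, 381 and 291 in GS, 1114, 3112 and 1624 in NO and 1245, 1382 and 1026 in DM. *Lama1*, a laminin chain of the same membrane, fell, from 8149, 7405 and 7918 in GS to 4372, 2874 and 3924 in NO, with a log2 difference of −1.09 that was −0.92 without NO replicate 2. Leaving out this library gave 3 higher primitive endoderm genes and none lower, and quantile normalisation 5 and none. Among 20 trophoblast genes 6 were higher and 3, *Cdx2*, *Eomes* and *Gata2*, were lower. *Krt7* and *Krt19*, keratins of simple epithelium, were among the higher genes, with 15, 4 and 4 and 183, 101 and 127 in GS and 65, 484 and 146 and 265, 2977 and 794 in NO. *Tfap2c*, a factor of trophoblast and naive cells, overlapped between GS (326, 262 and 275) and NO (144, 426 and 186) and stood at 34, 41 and 52 in DM. Of 14 neuroectoderm genes 2 were higher and none was lower, against 10.1% and 1.64% over all tested genes.

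Formative genes mark the phase that follows the ground state. Of 20 genes 4 were higher and 1 was lower in NO than in GS, and 7 were held, with a median log2 difference of 0.51 in NO against 1.78 in DM. Relative to DM, which shares the NO libraries with this comparison, 8 were lower in NO and 1 was higher (background 1.77% lower and 6.78% higher). *Otx2*, a homeobox factor of this phase, had 378, 314 and 392 in GS, 717, 219 and 485 in NO and 1582, 1535 and 1685 in DM. *Dnmt3a*, a de novo DNA methyltransferase, had 1146, 1103 and 1009 in GS, 1859, 1225 and 1328 in NO and 4391, 3872 and 4148 in DM. *Otx2* overlapped between GS and NO, *Dnmt3a* did not, and no NO value of either gene reached the DM values. *Sox4*, *Sox3*, *Pou3f1* and *Grhl2* were the genes higher in NO than in GS. The call of *Pou3f1* was lost without GS replicate 1 or 3 (adjusted p-values 0.0565 and 0.0611) and after quantile normalisation (log2 difference 0.73), that of *Sox3* without GS replicate 3 (0.0574), and *Sox4* was at 0.92 after quantile normalisation. The list had 5 higher genes and 1 lower without NO replicate 2, and 3 and 1 after quantile normalisation.

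FGF signalling is the input that MEK inhibition blocks, and its ligands and receptors were followed apart from the ERK targets. Of 14 tested genes 3 were higher and 2 lower in NO than in GS, and 3 were held. *Fgfr4*, a receptor, had 64, 31 and 34 in GS, 186, 659 and 322 in NO and 94, 81 and 128 in DM, a log2 difference of 3.03 (adjusted p-value 0.00106, limma). *Fgf10*, a ligand of limb and lung buds, fell from 290, 285 and 253 in GS to 130, 35 and 75 in NO and had 82, 109 and 46 in DM. All NO values lay above GS in *Fgfr4* and below GS in *Fgf10*. *Fgf1* and *Fgf18* were the other higher genes and *Fgf3* the other lower one. *Fgf3* lost its call without GS replicate 1 or 2 (limma, adjusted p-values 0.0759 and 0.0725), and its log2 difference was −0.935 without NO replicate 2. Without NO replicate 2 the list had 3 higher genes and 1 lower.

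Of 18 genes of BMP signalling, a pathway known to induce Id factors, 2 were higher, 1 was lower and 9 were held. Over all tested genes 10.1% were higher and 50.7% held, so the list was near both shares. *Id1* and *Id2*, inhibitors of basic helix-loop-helix factors, rose. *Id1* had 162, 198 and 163 in GS, 287, 1033 and 676 in NO and 374, 367 and 619 in DM, and *Id2* had 42, 45 and 53 in GS, 97, 699 and 187 in NO and 70, 71 and 51 in DM. In both genes every NO value lay above every GS value, with NO replicate 2 highest. *Gata2* was the lower gene. In the fit with NO replicate 2 left out, the counts were again 2 higher and 1 lower.

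The genes of nitric oxide synthesis and turnover were 21, of which 3 were higher, none was lower and 10 were held. Over all tested genes 10.1% were higher and 50.7% held, so the list was near both shares. *Nos3*, the endothelial synthase, had 23, 26 and 19 in GS, 71, 41 and 44 in NO and 79, 90 and 106 in DM. *Arg2*, an arginase that competes with the synthases for arginine, had 15, 14 and 15 in GS, 27, 183 and 103 in NO and 21, 11 and 5 in DM. *Pde5a*, a phosphodiesterase of cyclic GMP, had 117, 91 and 127 in GS, 187, 330 and 195 in NO and 95, 99 and 49 in DM. All NO values of the 3 genes were above their GS values, with log2 differences of 1.13, 2.37 and 1.04. Exons of *Nos3* overlap those of *Atg9b*, and exons of *Arg2* those of *Vti1b*, both protein-coding, so the counts of *Nos3* and *Arg2* are uncertain. None of the 3 calls held in every fit that left out a library, *Arg2* losing its call without any one of 5 libraries (adjusted p-values 0.061 to 0.0794), *Pde5a* without any one of 5 (0.0579 to 0.123) and *Nos3* without GS replicate 3 or NO replicate 1. The list had 1 higher gene without NO replicate 2, and 1 higher and 1 lower after quantile normalisation.

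Among 18 endothelial and haemangioblast genes 4 were higher and 1 lower, and among 22 genes of cardiac and smooth muscle 6 were higher and 2 lower. *Tek*, the angiopoietin receptor, had 75, 96 and 94 in GS, 557, 1871 and 987 in NO and 145, 169 and 152 in DM, and its log2 difference of 3.51 had an adjusted p-value of 0.000318 (limma). *Eng*, a co-receptor of the TGF-β family, had 949, 917 and 696 in GS, 1497, 3818 and 2369 in NO and 823, 1067 and 1123 in DM. *Des*, the intermediate filament of muscle, had 151, 141 and 97 in GS, 418, 1015 and 630 in NO and 210, 277 and 315 in DM. All NO values of these genes exceeded the GS and DM values. *Myl7*, an atrial myosin light chain, fell from 187, 294 and 230 in GS to 88, 61 and 63 in NO, while DM had 159, 196 and 229. The endothelial list had 4 higher genes and 1 lower without NO replicate 2, and the muscle list 4 and 2.

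Structural genes of epithelium and matrix were often higher in NO. Of 14 tested keratins 8 were higher, of 35 collagens 17 and of 26 genes with integrin symbols 11, and none of the 3 families had a lower member. The table held 41 keratins, 44 collagens and 31 genes with integrin symbols, and the others missed the minimum mean. This mean counted the NO libraries, so members very low in GS were tested mainly where DM or NO was higher. The shares of higher members are in part fixed by this. The integrin group was taken by symbol and also holds genes of integrin-binding proteins, which are not integrins. Their median log2 differences were 1.59, 1.43 and 0.81. Keratins are the intermediate filaments of epithelial cells. *Krt18* had 133, 102 and 86 in GS and 190, 604 and 301 in NO, and *Krt15*, a keratin of basal cells, was at 0, 0 and 1 in GS and reached 34, 455 and 139 in NO. *Col18a1*, which carries endostatin, had 3065, 3608 and 3087 in GS, 8175, 16110 and 12701 in NO and 8017, 7751 and 8823 in DM. *Itgb4*, an integrin of hemidesmosomes, had 413, 379 and 349 in GS and 742, 2448 and 1189 in NO. All NO values of these genes exceeded all GS values. The higher members were 7 keratins, 12 collagens and 7 of the integrin group without NO replicate 2, and after quantile normalisation 7, 13 and 8.

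Markers of fibroblasts, as a sign of feeder cells, were followed beside the matrix genes. Of 12 markers 6 passed the minimum mean, and their summed normalised counts were 377 to 591 in GS, 517 to 811 in NO and 489 to 502 in DM. *Col1a1*, *Thy1* and *Fbn1* were higher in NO than in GS. *Col1a1* had 21, 13 and 20 in GS and 39, 88 and 39 in NO, with an adjusted p-value of 0.0207 that was 0.0701 without NO replicate 2 and 0.0824 without GS replicate 2. *Pdgfrb*, *Col1a2* and *Col3a1* were tested and not called, and the other 6 did not pass the minimum mean, with at most 10 normalised counts in any library. The part of such cells in the matrix values was not tested. In bulk RNA fewer cells of a type and less RNA per cell cannot be told apart.

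Genes of early cleavage and of the germline were also higher. Of 12 tested two-cell-like genes 10 were higher, with a median log2 difference of 2.62. Their summed normalised counts were 68, 74 and 111 in GS and 217, 1694 and 525 in NO. The minimum mean counted the NO libraries, so the share of higher members is in part fixed by this filter. *Zscan4c*, a telomere factor of the two-cell-like state, had 5, 6 and 9 in GS and 41, 146 and 47 in NO, and *Zscan4d* had 13, 13 and 20 and 34, 288 and 80. NO replicate 2 was the highest in all 12 genes, and without it 3 were higher, against 6 after quantile normalisation. Copies in this group are nearly identical and reads that aligned to several places were excluded, so counts of single members are uncertain. Of 26 germline genes 10 were higher and none was lower, and without NO replicate 2 the higher genes were 4, against 6 higher and 1 lower after quantile normalisation. *Taf7l*, a germ cell TFIID subunit, had 4, 5 and 7 in GS, 53, 321 and 115 in NO and 4, 8 and 3 in DM. *Piwil2*, of the piRNA pathway, had 118, 110 and 107 in GS, 348, 667 and 573 in NO and 194, 173 and 197 in DM. Both were well above GS in every NO library, with log2 differences of 4.35 and 2.18 (adjusted p-values 0.00102 and 0.00042, limma).

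Of 23 imprinted genes 11 were higher and none was lower in NO. *Mest* had 939, 1151 and 1068 in GS, 2034, 2183 and 2341 in NO and 1770, 1890 and 1946 in DM, and *Peg10*, derived from a retrotransposon, had 6875, 6704 and 6970 in GS, 12894, 20557 and 14782 in NO and 13351, 14006 and 12378 in DM. Both genes were above GS in every NO library and in every DM library. The maternally expressed RNA *H19* had 37, 45 and 48 in GS, 189, 1240 and 385 in NO and 70, 57 and 72 in DM. The log2 differences from GS were 1.06, 1.20 and 3.35, in this order. Without NO replicate 2 the list had 6 higher genes and 1 lower gene, and after quantile normalisation 8 higher and none lower.

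**Figure D4:**
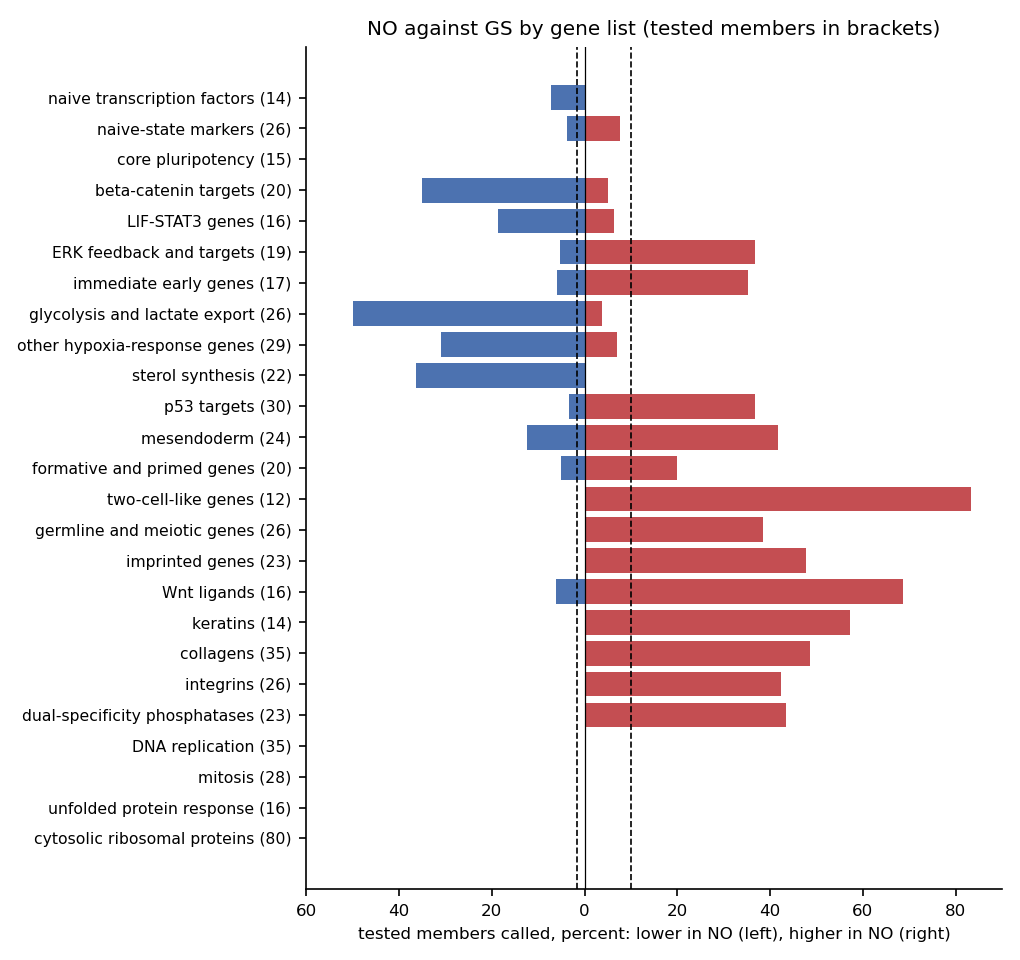
Percent of tested members called lower (left, blue) or higher (right, red) in NO than in GS for 25 lists, with the number tested in brackets. Dashed lines mark the shares over all tested genes, 1.64% lower and 10.1% higher, and are not matched to the level of each list. The glycolysis, sterol and β-catenin lists extend to the left while the lineage and structural families extend to the right.

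**Figure D5:**
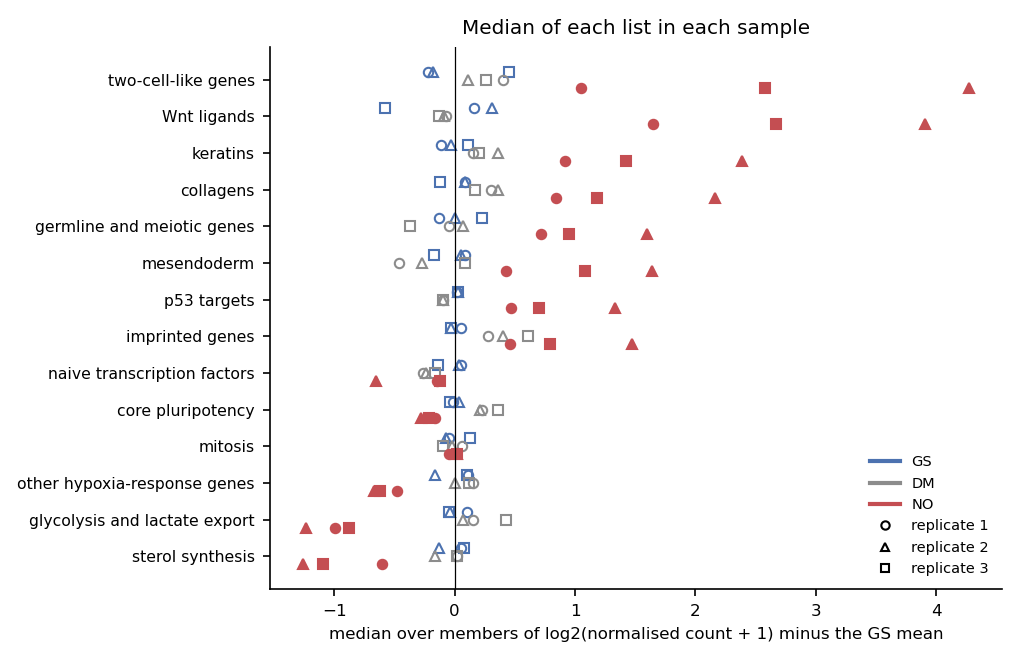
Median over the members of 14 lists of log2(normalised count + 1) minus the GS mean, for each library, with GS in blue, DM in grey, NO in red and the replicate number by symbol. In the plotted lists from two-cell-like to imprinted genes, NO replicate 1 is nearest to GS and NO replicate 2 farthest, while the NO libraries lie closer together in the glycolysis and hypoxia lists.

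Housekeeping groups were mostly held, and calls were rare among abundant genes as a whole. Of 4504 genes at 1000 or above in GS, 0.999% were higher and 1.64% lower in NO. All 28 mitosis genes were held, as were 34 of 35 DNA replication genes, 60 of 80 cytosolic ribosomal proteins, 30 of 36 complex I subunits and 13 of 16 genes of the unfolded protein response, and no member of these lists was called. With quantile normalisation 1 complex I subunit was lower, and 1 ribosomal protein gene was higher in the fit without NO replicate 2. Of 25 NRF2 targets 19 were held and 2 were higher, *Osgin1* and *Nqo1*. The higher share of this list did not exceed the 10.1% over all tested genes. The call of *Osgin1* (adjusted p-value 0.0497) was lost in most alternatives, among them the fits without GS replicate 3 (log2 difference 1.43 in place of 2.59, adjusted p-value 0.121), GS replicate 2, NO replicate 2, NO replicate 3 or any one DM library, and the list had 1 higher gene without NO replicate 2. *Nqo1*, a quinone reductase, had 1023, 1242 and 1245 in GS, 2179, 2832 and 3280 in NO and 1307, 1105 and 1447 in DM, and no NO value overlapped with the other media (log2 difference 1.23, adjusted p-value 0.00111, limma).

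Use of the strand in counting is not given in the sources used here, and reads that overlapped several genes were excluded. Counts of genes whose exons overlap those of another gene are therefore uncertain. Of the genes named here, 75 of 228 have exons that overlap those of another annotated gene (GENCODE M21), and for 23 that gene codes for protein. Among these are *Aire* and *Dnmt3l*, which overlap each other, *Nos3*, *Arg2*, *Stat3*, *Tpi1*, *Aldoa*, *Gapdh*, *Pfkp*, *Ankrd37*, *Ndufa4l2*, *Fdps*, *Cyp51*, *Col4a1*, *Mest*, *Hspa1a* and *Cryab*.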

How the data were processed

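Total RNA libraries of mES-D3 cells were made for GS, DM and NO, with 3 per medium. Per the study's methods and the submitters' processing notes, the authors checked reads with FastQC 0.11.2, trimmed them with Reaper, aligned them to GRCm38 with STAR 2.4.0a and counted them per gene with featureCounts 1.4.5-p1. The deposited table holds counts normalised by the authors with DESeq2 and rounded to whole numbers, and these values were treated as a score and not as raw counts, so no count test was run. Per the study's methods, reads that overlapped several genes or aligned to several places were excluded before counting. A deposited column of sums was not used. Raw depth is not in the table and was estimated from the spacing of low values, so the depths are approximate.

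Genes with a mean above 5 over the 9 libraries were tested in R 4.3.3 with limma 3.58.1 on log2(value + 1), with all 9 libraries in a single fit, a mean-variance trend in the empirical Bayes step, two-sided tests and Benjamini-Hochberg adjustment over all tested genes. Fold changes on this scale understate the change of low genes. Log2 differences are NO minus GS unless DM is named. Calls needed an adjusted p-value under 0.05 and a log2 difference of at least 1. The study's methods give RNA from a separate dish for each sample. The labels do not say whether the dishes of a medium were independent cultures. The p-values measure the spread between these libraries, which may not be that of independent experiments.

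The question, the lists and their members were chosen with earlier results of these data known, and no list was tested as a set. Genes were named by a rule: members of the 5 ground-state, β-catenin and LIF lists; the 12 called genes per direction with the largest difference, non-overlapping media and a mean of at least 100, leaving out predicted genes and pseudogenes; the 10 genes described as low in DM; and up to 4 called members and the most abundant member of each other list. Further members of these lists were named after their values were seen. Some list members are not reported here and were left out of the lists and their counts. Promoter sequences came from RefSeq and gene coordinates from GENCODE M21, both of GRCm38. Alternatives were the 6 libraries alone, a block for the replicate number, other minimum means, pseudocounts, scalings, thresholds and sample weights, and each library left out in turn.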

Additional observations from a re-analysis of the deposited data

How the results depend on the processing

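Against 1830 higher and 297 lower genes, a minimum mean of 50 gave 1010 and 196 on fewer tested genes, and a log2 limit of 2 gave 880 and 46, with 1 ground-state gene lower in place of 2. Lower genes numbered 629 after quantile normalisation, 673 with sample quality weights and 1205 with no minimum fold change, which left 5 ground-state genes lower. The cause was not tested for quantile normalisation and the weights. Leaving out each library in turn gave 1170 to 2319 higher genes, 207 to 524 lower genes, 35 to 40 held ground-state genes and 2 to 6 lower ones. The 1170 came without NO replicate 2, and the 524 and 6 without NO replicate 1. The number of held ground-state genes was 35 to 43 over the settings run.

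Of 153 named genes that were called, 108 kept their call and direction in each of the 19 settings with these thresholds that tested them. The setting with a minimum mean of 50 tested only 209 of the 228 named genes. Of the 153, 41 lost their call in at least 1 fit without a library. None of the 153 reversed in direction, and named genes that were not called were not checked for this. Beside the genes given above, *Bbc3*, *Cdx2*, *Fbn1*, *Gpi1*, *Krt19*, *Mest*, *Pkm*, *Psat1* and *Trp53cor1* were among these 41. With the replicate number as a replicate block, 1804 genes were higher and 281 lower, and 37 ground-state genes were held and 2 lower. Deviations of GS and NO libraries with the same number correlated at −0.05, 0.05 and −0.11, so no shared deviation was seen. With so few libraries this cannot tell whether libraries with the same number were paired by design. The median SD of a gene between libraries was 0.21 in GS and 0.31 in NO (log2), so NO limits the precision more than GS, and intervals of genes near 0 counts depend on the pseudocount.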

Other observations

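Further families, not described above, differed between the media in their own ways. Of 27 tested Hox genes 4 were lower and 2 were higher in NO than in GS, against 1.64% lower and 10.1% higher over all tested genes. The median of the family was 0.11 in NO and −1.23 in DM, on the log2 scale. *Hoxc13* had 319, 334 and 304 in GS (normalised counts), 296, 691 and 417 in NO and 123, 182 and 140 in DM, and *Hoxb13* had 158, 75 and 110 in GS, 19, 33 and 38 in NO and 26, 29 and 38 in DM. The family had 2 lower and no higher genes without NO replicate 2, and quantile normalisation gave 4 lower and none higher. *Hoxc13* overlapped between GS and NO, and *Hoxb13* was low in NO as in DM. Of 63 replication-dependent histone genes 2 were lower, near the 1.64% over all tested genes. The family median was −0.68, and NO replicate 2 was the lowest NO library in 50 of the 63. No small nucleolar RNA of 80 was called.

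Of 23 genes with dual-specificity phosphatase symbols, only some of which encode phosphatases of MAP kinases, 10 were higher and none was lower. The counts were 6 and none without NO replicate 2, and 8 and 1 after quantile normalisation. *Dusp9* had 337, 274 and 239 in GS and 529, 666 and 620 in NO, and *Dusp13* had 11, 14 and 16 in GS and 80, 641 and 226 in NO. Of 31 cytochrome P450 genes 12 were higher and 2 lower. *Cyp26b1*, which degrades retinoic acid, had 18, 11 and 9 in GS and 48, 238 and 85 in NO. Of 18 Notch pathway genes 5 were higher and 1 was lower, and the one that fell was *Hes7*, an oscillating gene of somite formation, with 13, 14 and 8 in GS, 2, 0 and 0 in NO and 16, 11 and 6 in DM. *Notch3* had 1441, 1281 and 1072 in GS and 2585, 7632 and 3898 in NO, and all NO values were above all GS values.

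Among stress genes, 4 of 25 of the integrated stress response were lower and 1, *Atf3*, was higher, and without NO replicate 2 the lower genes were 2. *Psat1*, an enzyme of serine synthesis, had 7281, 5256 and 6512 in GS and 4272, 1287 and 2320 in NO. Of 17 heat shock chaperones *Hspa1a* and *Cryab* were higher, a share near the 10.1% over all tested genes. *Cryab*, a small chaperone of the lens and muscle, had 64, 95 and 126 in GS, 371, 2203 and 934 in NO and 65, 67 and 107 in DM. *Tfrc*, the transferrin receptor, fell from 17046, 18425 and 24136 in GS to 9433, 6550 and 8142 in NO (log2 difference −1.30, adjusted p-value 0.0015, limma), and it stood at 12759, 12001 and 8767 in DM. *Serpine2*, a protease inhibitor, had 245, 177 and 217 in GS, 1420, 4989 and 2632 in NO and 296, 261 and 230 in DM. *Aldh1l1*, a folate enzyme, had 1097, 826 and 897 in GS and 1609, 4834 and 2883 in NO, whereas *Dmgdh* and *Bhmt*, also of one-carbon catabolism, fell. *Dmgdh* had 838, 803 and 869 in GS, 293, 254 and 292 in NO and 144, 158 and 142 in DM, with no overlap of the media.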
